A study of Mus musculus with 42 samples.

Results

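Rag1, Rag2 and Dntt encode the enzymes that cut and diversify antigen receptor genes, and their transcripts were followed in 21 mouse pre-B cell lines with and without ionizing radiation. The genes were taken by their symbols in the platform annotation, which gave 1 probe set for Rag1 (1450680_at), 1 for Rag2 (1418065_at) and 3 for Dntt (1450545_a_at, 1449757_x_at and 1420166_at). These are 5 of the 45101 probe sets on the array, and the 3 genes are 3 of the 12345 genes with a probe set that passed the filter on low signal. All 5 probe sets passed that filter. The choice by symbol used no measured value, but the genes were picked with earlier results of these data known.

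The Rag1 and Rag2 proteins together form the recombinase of V(D)J recombination. It cuts the DNA beside the V, D and J segments of antigen receptor genes, and non-homologous end joining seals the breaks. Dntt is terminal deoxynucleotidyl transferase (TdT), which adds untemplated nucleotides to the open ends before they are joined and so widens receptor diversity. In the mouse, Rag1 and Rag2 are active in pro-B cells and again in small pre-B cells, where the immunoglobulin light chain genes are rearranged. Transformation by the v-abl kinase holds cells at a pre-B stage. The kinase Atm responds to breaks made by Rag, and Atm signalling has been reported to lower Rag transcripts in mouse pre-B cells.

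The lines were grown from bone marrow of mice 3 to 5 weeks old that carried the Eμ-Bcl2 transgene, which drives the survival gene Bcl2 in lymphoid cells, and were transformed with a v-abl retrovirus. Transgene and v-abl were therefore shared by all groups. The genotypes were Atm-/-, lacking the kinase that signals double-strand breaks, Scid, a mutation of the end-joining kinase gene Prkdc, Mre11A/A, a hypomorphic mutant of the nuclease Mre11, and H2ax-/-, Mdc1-/- and 53bp1-/-, which lack proteins of the chromatin around a break, with wild type (WT) as the control. Each genotype had 3 lines, numbered 1, 2 and 3 in the mutants and 1, 3 and 4 in WT. Each line had an array 2 h after 1 Gy of γ rays and an array after mock treatment, referred to as untreated, which makes 42 arrays. By the labels, arrays of one group are biological replicates; whether a line was a single clone is not stated there. The study compared each genotype's response to radiation with that of WT and of the other mutants.

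The arrays carried the defining genes of the B lineage. Of 9 such genes, 8 had a probe set with a single symbol, and all 8 (Vpreb1, Igll1, Vpreb3, Blnk, Cd79b, Cd79a, Ebf1 and Pax5) lay above the array median on all 42 arrays. Their summed signal was 63828 to 111904 on irradiated arrays, against 65918 to 110347 on untreated ones. Of the 8 T-cell genes, Cd3e, Cd3d, Cd4, Cd8b1 and Thy1 lay above the median on no array, Cd8a on 36 of 42 and Lat on 39 of 42, with a Lat signal of 51.1 to 3200.1 (median 542), and the sum over the 8 was 254 to 3308 on irradiated arrays, against 223 to 3374 on untreated ones. On irradiated arrays, against untreated ones, the sums were 339 to 2913 against 320.0 to 2983 for 8 myeloid genes, 52.0 to 239 against 54.9 to 211 for erythroid genes, and 112 to 423 against 93.2 to 278 for stromal genes. The targeted genes were low in their own mutants: Atm read 129 to 281 in Atm-/- lines, against 1300.0 to 1756 in WT lines, H2afx 18.7 to 107 in H2ax-/- lines, against 8328 to 12982 in WT lines, and Mdc1 3.52 to 176 in Mdc1-/- lines, against 336 to 476 in WT lines. Mre11a read 462 to 706 in Mre11A/A lines, against 1322 to 1706 in WT lines, with its second probe set at 223 to 297 against 95.1 to 214, and Trp53bp1, on the 1 of its 6 probe sets that separated the groups, 295 to 505 in 53bp1-/- lines, against 599 to 903 in WT lines. Prkdc read 427 to 591 in Scid lines, against 543 to 665 in WT lines; the Scid allele is a mutation of the coding sequence, so this level checks nothing. Array medians were 62.6 to 82.9 on 40 arrays and reached 115.7 on the other two, the irradiated arrays of Atm-/- line 2 and WT line 4.

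Rag1 and Rag2 lie side by side on mouse chromosome 2. In the RefSeq annotation of GRCm38.p6, Rag1 spans chr2:101638252-101649532 on the minus strand and Rag2 chr2:101624712-101632528 on the plus strand, with 5723 bases between them, so that the genes are transcribed toward each other. Dntt spans chr19:41029275-41059525 on the plus strand. The promoter windows of the 3 genes are shown because Rag1 and Rag2 moved together in the data while Dntt moved less; each holds the 300 bases around the RefSeq gene start, 5′ to 3′ on the strand of the gene. The windows are chr2:101649483-101649782 (minus strand) for Rag1, chr2:101624462-101624761 (plus strand) for Rag2 and chr19:41029025-41029324 (plus strand) for Dntt. Capitals mark matches to the motifs described after the sequences.
Rag1: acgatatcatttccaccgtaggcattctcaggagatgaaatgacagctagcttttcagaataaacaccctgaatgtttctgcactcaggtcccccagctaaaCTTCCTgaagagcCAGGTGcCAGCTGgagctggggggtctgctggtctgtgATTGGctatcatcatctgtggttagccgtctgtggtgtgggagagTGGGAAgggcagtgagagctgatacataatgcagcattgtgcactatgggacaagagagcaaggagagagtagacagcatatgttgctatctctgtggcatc
Rag2: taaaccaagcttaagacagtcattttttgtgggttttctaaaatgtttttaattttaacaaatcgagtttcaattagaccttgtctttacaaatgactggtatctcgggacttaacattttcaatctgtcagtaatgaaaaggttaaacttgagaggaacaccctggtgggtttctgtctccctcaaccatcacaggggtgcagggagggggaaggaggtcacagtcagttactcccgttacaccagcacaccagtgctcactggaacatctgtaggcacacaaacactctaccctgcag
Dntt: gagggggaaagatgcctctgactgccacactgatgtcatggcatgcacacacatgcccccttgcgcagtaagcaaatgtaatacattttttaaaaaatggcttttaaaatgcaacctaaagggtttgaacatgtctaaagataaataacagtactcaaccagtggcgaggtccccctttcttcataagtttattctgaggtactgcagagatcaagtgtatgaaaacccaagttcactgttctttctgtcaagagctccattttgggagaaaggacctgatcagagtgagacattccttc

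The windows were searched on both strands for 9 short motifs: the E2A type of E-box CAGGTG, another E-box spelt CAGCTG, the forkhead core TGTTTAC, the Ikaros core TGGGAA, the Ets core AGGAAG, the CCAAT box, the Sp1 core GGGCGG, the TATA box spelt TATAAA and the NF-kB form of GGGA and CC with any 4 bases between. The Rag1 window held 5 matches, which did not overlap. They were AGGAAG on the opposite strand at -148, CAGGTG at -135, CAGCTG at -128, CCAAT on the opposite strand at -97 and TGGGAA at -52, counted from 0 at the first base of the gene. The Rag2 and Dntt windows held none of the 9. All 5 motifs are common: of 32851 mouse windows of the same length, AGGAAG was in 35.4%, CAGGTG in 20.2%, CAGCTG in 16.3%, CCAAT in 37.4% and TGGGAA in 25.6%. Of the motifs without a match here, TGTTTAC was in 3.65% of windows, GGGCGG in 35.7%, TATAAA in 13.6% and the NF-kB form in 20.7%. The GC content was 50% for the Rag1 window, 43.0% for Rag2 and 42.3% for Dntt, against a median of 52.7% over all windows. A match describes the letters of the window only.

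Rag1 transcript was lower after radiation in every one of the 21 lines. Rag1 supplies the catalytic core of the recombinase. Levels are given as deposited MAS5 signals, a linear intensity scaled on each array to a trimmed mean of 500.003. In the Mdc1-/- lines 1, 2 and 3, Rag1 read 298, 80.8 and 462 on the irradiated arrays, against 607, 299 and 1377.5 on the untreated arrays of the same lines. In the H2ax-/- lines it read 571, 533 and 474 after radiation, against 1534, 972 and 1155 untreated. All 3 irradiated values lay below all 3 untreated values in H2ax-/- alone of the 7 genotypes, an arrangement that 5.79% of probe sets showed there, against 2.54% in Atm-/-, 3.67% in Scid, 3.6% in Mre11A/A, 3.47% in 53bp1-/-, 6.46% in Mdc1-/- and 4.41% in WT lines. In the Scid lines it read 131, 84.7 and 159.8 after radiation, against 376, 125 and 401 untreated. In the 53bp1-/- lines it read 1079.8, 256 and 369 after radiation, against 1541, 542 and 750.2 untreated. In the WT lines 1, 3 and 4 it read 688, 385 and 181 after radiation, against 1579, 1190.5 and 299 untreated. Lines of one genotype thus differed widely in level, and WT line 4 untreated lay below the irradiated arrays of both other WT lines. In bulk RNA, fewer cells expressing a gene and less of its RNA per cell cannot be told apart.

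The smallest mean differences in Rag1 were seen in Atm-/- and Mre11A/A lines. In the Atm-/- lines 1, 2 and 3, Rag1 read 1015, 347 and 794 after radiation, against 1041, 378 and 1203 untreated. In the Mre11A/A lines it read 113, 388 and 327 after radiation, against 136, 395 and 413 untreated. In all 6 of these lines the irradiated array was the lower one, with log2 changes of -0.59 to -0.02. In 3 of them, Atm-/- lines 1 and 2 and Mre11A/A line 2, the change was -0.04, -0.12 and -0.02. Single lines overlapped with other genotypes: Atm-/- line 3 fell by 0.59, Scid line 2 by 0.49 and 53bp1-/- line 1 by 0.51.

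**Figure D1:**
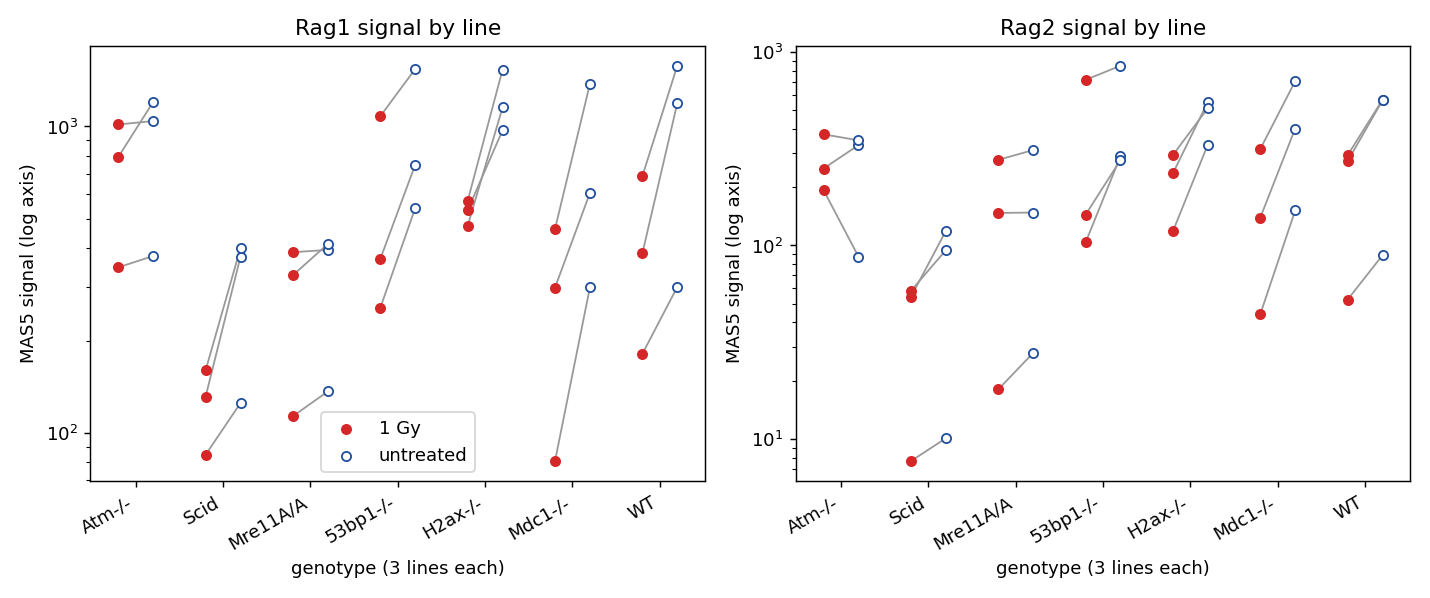
MAS5 signal (log axis) of Rag1 and Rag2 in each line, with the irradiated array left of the untreated array of the same line and a line joining the pair; genotypes run along the horizontal axis with WT last. Rag1 was lower after radiation in all 21 lines and Rag2 in 19, and lines within a genotype differ in level by more than most pairs do.

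Changes were calculated for each line as log2(signal + 16) of the irradiated array minus that of the untreated array, and tested with limma with the line as a block and Benjamini-Hochberg adjustment over 28217 probe sets. Rag1 fell in 5 of the 7 genotypes. In Mdc1-/- lines it fell by 1.41 (95% CI -1.78 to -1.04, adjusted p = 2.58e-05), to 37.6% of the untreated value of signal + 16; 1.45% of probe sets were called lower in Mdc1-/-. The changes of single lines were -0.99, -1.70 and -1.54 there. In H2ax-/- lines Rag1 fell by 1.17 (adjusted p = 0.000882, to 44.5%; background 0.486%) and in Scid lines by 1.05 (adjusted p = 0.00158, to 48.3%; background 0.454%). In 53bp1-/- lines it fell by 0.85 (adjusted p = 0.0134, to 55.7%; background 0.191%), and in WT lines by 1.15 (adjusted p = 0.000687, to 45.1%; background 0.964%). The standard error of each of these changes was 0.18 (n = 3 lines). The Scid call and the 53bp1-/- call were lost when Scid line 1 (adjusted p = 0.0898), 53bp1-/- line 2 (0.242) or 53bp1-/- line 3 (0.214) was left out. The Scid call was also lost with a fit to the Scid arrays alone (0.0869), and the 53bp1-/- call without the variance trend (0.0707).

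In Atm-/- lines the Rag1 change was -0.25 (95% CI -0.62 to 0.12, adjusted p = 0.544, background 0.78%) and in Mre11A/A lines -0.20 (95% CI -0.57 to 0.18, adjusted p = 1, background 0%). Over the 7 genotypes weighted equally, Rag1 fell by 0.87 (SE 0.07, 95% CI -1.01 to -0.73, adjusted p = 2.48e-09, n = 21 lines). This was rank 2 from the lowest among 28217 probe sets, of which 5.56% were called lower in the mean response. The median change per line was -0.99, and only 20 of the 28217 probe sets (0.0709%) were lower in all 21 lines. With no replicate block, which sets each change against the spread of levels between lines, the mean change was the same and its adjusted p was 0.0609, where 2.41% of probe sets were called, and no single genotype was called by limma.

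Rag2, the partner without which Rag1 does not cut, was lower after radiation in most of the same lines. Its probe set lay above the array median on 34 of 42 arrays, and between the percentiles 14.1 and 82.8 of an array. In the Mdc1-/- lines it read 139, 44.1 and 315 after radiation, against 402, 152 and 706 untreated. In the H2ax-/- lines it read 236, 118 and 293 after radiation, against 552, 332 and 512 untreated. As with Rag1, only in H2ax-/- did the irradiated and untreated arrays not overlap. In the 53bp1-/- lines it read 717, 104 and 144 after radiation, against 848, 289 and 277 untreated. In the Scid lines it read 58.2, 7.69 and 54.2 after radiation, against 94.5, 10.1 and 119 untreated. In the WT lines 1, 3 and 4 it read 292, 272 and 52.5 after radiation, against 566, 563 and 89.1 untreated. Scid line 2 had the lowest Rag2 signal of the 21 lines under both conditions.

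In the Atm-/- lines 1, 2 and 3, Rag2 read 249.6, 193 and 375 after radiation, against 329.9, 87.6 and 349 untreated. In the Mre11A/A lines it read 18.04, 277 and 147 after radiation, against 27.8, 311 and 148 untreated. Atm-/- lines 2 and 3 were the only 2 of the 21 lines with more Rag2 signal after radiation than untreated. Line 2 rests on an irradiated array with one of the 2 high medians, and without that line the Atm-/- change was -0.14 in place of 0.24.

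Rag2 fell in 3 genotypes: by 1.35 in Mdc1-/- lines (95% CI -1.82 to -0.88, adjusted p = 0.000628), by 1.11 in H2ax-/- lines (95% CI -1.58 to -0.64, adjusted p = 0.0126) and by 0.85 in WT lines (95% CI -1.32 to -0.38, adjusted p = 0.0493). The backgrounds of probe sets called lower are the same as for Rag1: 1.45%, 0.486% and 0.964%. The WT call stood closest to the threshold, and its adjusted p was 0.183, 0.281 and 0.0795 without WT line 1, 3 or 4, and 0.0643 to 0.0898 with a pseudocount of 1, with no filter, without the variance trend or with the WT arrays alone. The WT call was also lost without Scid line 1, 53bp1-/- line 3 or any single Mre11A/A, H2ax-/- or Mdc1-/- line. The H2ax-/- call ended when any of its lines was left out (adjusted p = 0.165, 0.125 and 0.0531 without line 1, 2 and 3). In 53bp1-/- lines the change was -0.82 (95% CI -1.29 to -0.35, adjusted p = 0.0946), in Scid lines -0.55 (-1.02 to -0.08, adjusted p = 0.327), in Mre11A/A lines -0.18 (-0.65 to 0.29, adjusted p = 1) and in Atm-/- lines 0.24 (-0.23 to 0.71, adjusted p = 0.656). The mean over genotypes fell by 0.66 (SE 0.09, adjusted p = 6.7e-06, n = 21 lines), rank 6 from the lowest. Rag2 was lower in 19 of 21 lines, as 1.2% of probe sets were in at least that many.

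Dntt, the TdT gene, was measured by 3 probe sets. On the leading one, 1450545_a_at, the Mdc1-/- lines read 6558, 3525 and 1307 after radiation, against 7893, 4488 and 1578 untreated. The WT lines 1, 3 and 4 read 2423, 1647 and 1416 after radiation, against 3094, 1715 and 2014 untreated. In both genotypes every line was lower after radiation. The Atm-/- lines read 741, 770.3 and 1933 after radiation, against 805, 778 and 1968 untreated. The Mre11A/A lines read 375, 82.4 and 967 after radiation, against 354, 76.2 and 1002 untreated. In these 6 lines the log2 changes ran from -0.12 to 0.09. The Scid lines read 5148, 2221 and 971 after radiation, against 5849, 2115 and 1156 untreated. The 53bp1-/- lines read 2279, 7611 and 1555 after radiation, against 2327, 7855 and 1908 untreated, and the H2ax-/- lines 2997, 707 and 429, against 3803, 892 and 400.1 untreated. One line of Scid and one of H2ax-/- were higher after radiation, and the others lower.

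**Figure D2:**
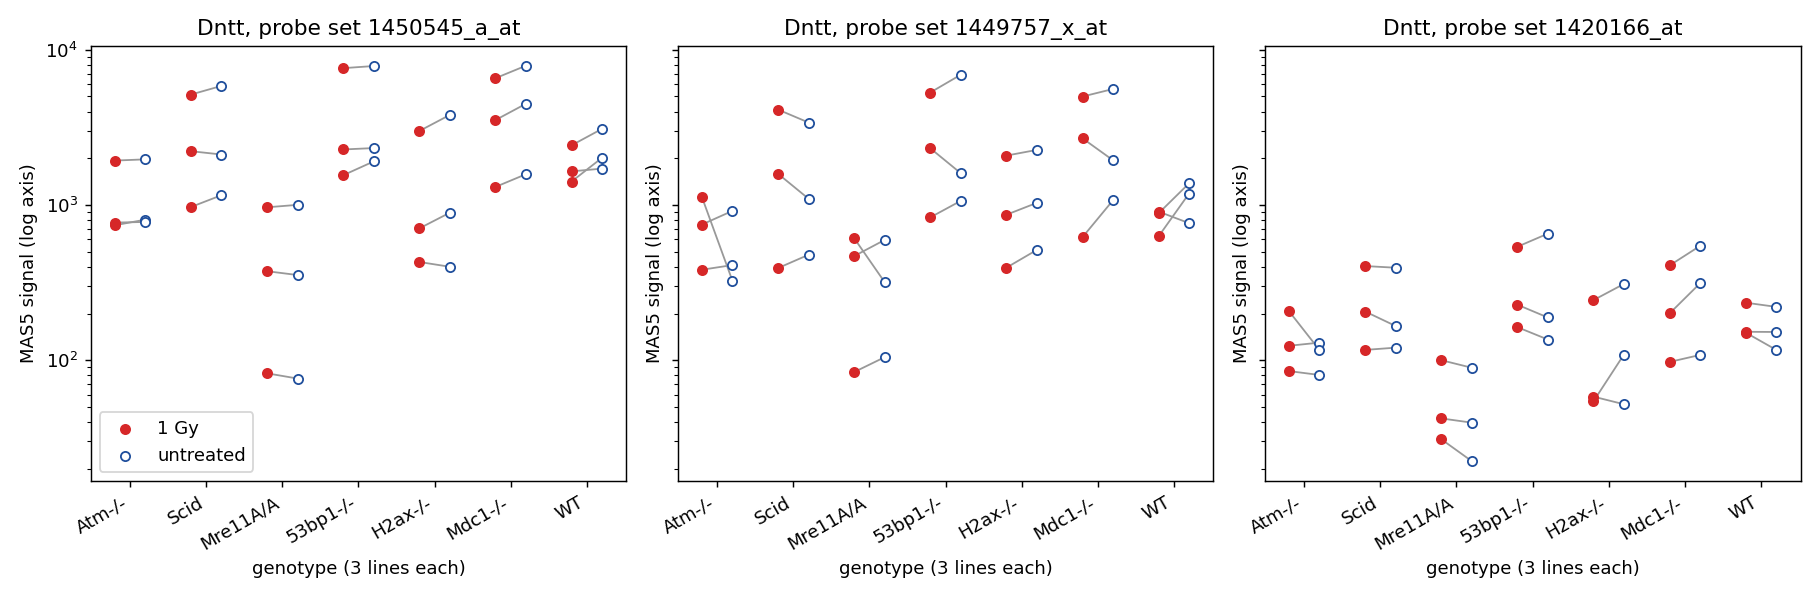
MAS5 signal (log axis) of the 3 Dntt probe sets in each line, drawn as for the Rag genes with irradiated arrays left of untreated ones. The leading probe set covers 76.2 to 7893 in untreated lines, and on it the 2 arrays of a line lie close together.

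No genotype reached the threshold for Dntt. limma gave -0.29 in Mdc1-/- lines (95% CI -0.48 to -0.10, adjusted p = 0.0844) and -0.30 in WT lines (-0.49 to -0.11, adjusted p = 0.0892), with a standard error of 0.09. The other changes were -0.19 in H2ax-/-, -0.12 in both 53bp1-/- and Scid, -0.05 in Atm-/- and 0.04 in Mre11A/A lines, with adjusted p of 0.511 or more. At an unadjusted p under 0.05, 3 of the 7 were below the threshold. Of all 28217 probe sets, 1322 (Mre11A/A) to 4303 (Atm-/-) were so in a genotype. The mean over genotypes fell by 0.15 (SE 0.03, 95% CI -0.22 to -0.08, adjusted p = 0.00476), rank 2628 of 28217, in 17 of 21 lines (4.72% of probe sets were lower in at least that many). The other probe sets were not called: 1449757_x_at had a mean change of -0.02 (adjusted p = 0.935, lower in 14 lines) and 1420166_at of 0.00 (adjusted p = 1, lower in 8 lines). The mean of 1449757_x_at includes a rise of 1.74 in Atm-/- line 2, whose irradiated array had one of the 2 high medians. Median changes per line were -0.12 on the leading probe set, -0.25 on 1449757_x_at and 0.07 on 1420166_at. A called fall of Dntt in the mean response thus rests on 1 of 3 probe sets. Across lines the 3 probe sets ranked untreated levels alike (Pearson r from 0.942 to 0.957), whereas their changes correlated at 0.45, 0.53 and 0.01.

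**Figure D3:**
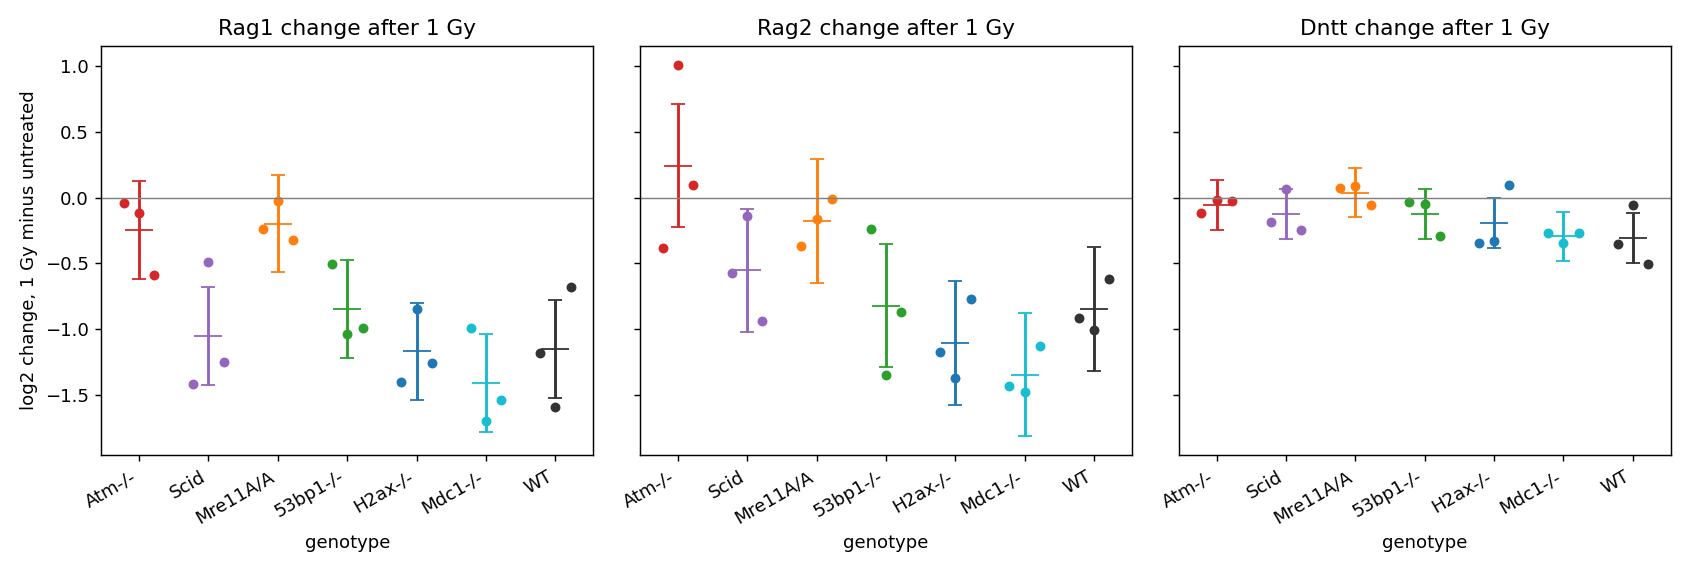
Change of each line in log2(signal + 16), irradiated minus untreated, for Rag1, Rag2 and Dntt; points are lines and bars are limma means with 95% confidence intervals, 3 lines per genotype, with WT last. By the limma means, Rag1 and Rag2 lie furthest below 0 in Mdc1-/- and H2ax-/- lines and closest to 0 in Mre11A/A and Atm-/- lines, and Dntt lies between -0.50 and 0.10 in every line.

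Whether the responses differed between genotypes was tested directly. The Rag1 change in Atm-/- lines minus that in WT lines was 0.90 (95% CI 0.37 to 1.43, adjusted p = 0.0851), and in Mre11A/A minus WT lines 0.95 (0.43 to 1.48, adjusted p = 0.287). For Rag2 the same differences were 1.09 (0.43 to 1.75, adjusted p = 0.1) and 0.67 (0.01 to 1.33, adjusted p = 0.624). None passed the threshold, and all 4 intervals lay above 0 before adjustment. The Rag2 difference of Atm-/- from WT ran from 0.82 to 1.19 over the alternative settings other than leaving out single lines. It leans on Atm-/- line 2, without which the Atm-/- change was -0.14. The remaining mutants differed from WT by -0.26 to 0.30 for Rag1 and by -0.50 to 0.29 for Rag2, with adjusted p of 0.947 or more; for 53bp1-/- the Rag2 interval ran from -0.64 to 0.69. All 6 comparisons share the WT arrays. limma called 1.01% of probe sets in the Atm-/- comparison and 0% in each of the other 5.

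For Dntt the differences from WT were 0.25 for Atm-/- (adjusted p = 0.401) and 0.34 for Mre11A/A (95% CI 0.08 to 0.61, adjusted p = 0.496), and none of the 6 was called. At an unadjusted p under 0.05 there were 2 of 6 for Rag1, 2 for Rag2 and 1 for Dntt. Of all 28217 probe sets, 3877 had such a p for Atm-/-, 2246 for Mre11A/A and 1299 to 1534 for each other mutant. A single F test over the 7 genotypes gave adjusted p of 0.0509 for Rag1, 0.0869 for Rag2 and 0.639 for Dntt, where 0.542% of probe sets passed. The Rag1 value lay on both sides of 0.05 under other settings and between 0.0161 and 0.132 as single lines were left out. Genotype accounted for 69.6% of the sum of squares of the Rag1 change over lines, 69.5% for Rag2 and 44.4% for Dntt.

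Among the 15 pairs of mutants, adjusted jointly, the lowest adjusted p were 0.0551 for Rag2 in Atm-/- minus Mdc1-/- lines (1.59, 95% CI 0.93 to 2.25), 0.0682 for Rag1 in Mre11A/A minus Mdc1-/- lines (1.22, 0.69 to 1.74) and 0.0867 for Rag1 in Atm-/- minus Mdc1-/- lines (1.16). limma called no pair for any of the 3 genes, where 0.0898% of the tests over all probe sets and pairs were called. At an unadjusted p under 0.05 there were 9 of 15 pairs for Rag1, 7 for Rag2 and 1 for Dntt. Of all 28217 probe sets, 973 (53bp1-/- minus Mdc1-/-) to 4149 (Atm-/- minus Scid) had such a p in a pair.

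Untreated levels of all 3 genes varied among lines. Genotype accounted for 50.6% of the sum of squares of the log2 level for Rag1, 49.6% for Rag2 and 56.8% for Dntt, the rest lying among lines of one genotype. As for the changes, such a share lies well above 0 even where genotypes do not differ. Rag1 ranged from 80.8 to 1079.8 over the 21 irradiated lines and from 125 to 1579, 12.6-fold, over the untreated ones. Untreated Rag2 read 10.1 to 848, its lowest value lying far below the array median, so no fold is given, and the leading Dntt probe set ranged 104-fold, between 76.2 and 7893. On the log2(signal + 16) scale, mean untreated Rag1 was 10.25 in H2ax-/-, 9.77 in 53bp1-/-, 9.64 in Atm-/-, 9.34 in Mdc1-/-, 8.23 in Mre11A/A and 8.15 in Scid lines, against 9.73 in WT lines. Mean Rag2 was 8.88 in H2ax-/-, 8.73 in 53bp1-/-, 8.53 in Mdc1-/-, 7.88 in Atm-/-, 7.05 in Mre11A/A and 6.19 in Scid lines, against 8.36 in WT lines. The 2 Rag genes therefore shared the top pair and the bottom pair of genotypes. Mean Dntt was 11.91 in Mdc1-/-, 11.68 in 53bp1-/-, 11.26 in Scid, 10.14 in H2ax-/-, 10.09 in Atm-/- and 8.35 in Mre11A/A lines, against 11.12 in WT lines. No genotype was separated from its neighbour in any of these orders by lines that did not overlap.

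Against WT, untreated Scid lines differed by -1.57 for Rag1 (95% CI -2.94 to -0.20, adjusted p = 0.354) and by -2.17 for Rag2 (-3.89 to -0.45, adjusted p = 0.302), with 0.248% of probe sets called. Untreated Mre11A/A lines differed by -1.50 for Rag1 (-2.87 to -0.13, adjusted p = 0.233), by -1.30 for Rag2 (adjusted p = 0.446) and by -2.77 for Dntt (-4.61 to -0.93, adjusted p = 0.0867), with 4.42% called. The other Dntt probe sets gave -1.91 and -1.52 (adjusted p = 0.214 each) in the same comparison. limma called none of the 6 comparisons for any of the 3 genes, and at an unadjusted p under 0.05 there were 2 for Rag1, 1 for Rag2 and 1 for Dntt. Of all 28217 probe sets, 2869 (Atm-/-) to 5778 (Mdc1-/-) had such an unadjusted p in a comparison. Backgrounds of calls after adjustment were 0.0532% in Atm-/-, 4.37% in 53bp1-/-, 4.95% in H2ax-/- and 6.63% in Mdc1-/- comparisons. The F test over genotypes gave adjusted p of 0.115 for Rag1, 0.128 for Rag2 and 0.0589 for Dntt, where 16.5% of probe sets passed. With all 42 arrays and the line as a random block, the F test gave 0.0229, 0.0346 and 0.00555 for the same genes, and the Dntt difference in Mre11A/A lines was called (adjusted p = 0.0225).

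Rag1 and Rag2 levels went together from line to line. Over the 21 untreated lines, Pearson's r of their log2 levels was 0.938 and Spearman's rho 0.926, each with a permutation p of 1e-05, the smallest that 100000 permutations can give, and 6e-05 after adjustment over 6 relations. Without the 2 lines farthest from the median of Rag1, r was 0.894. On deviations from genotype means r was 0.955 and rho 0.913, so the relation held within genotypes. Rag2 was the gene most like Rag1 among 12344 others by this measure, and Rag1 the most like Rag2. Their relations to Dntt did not pass the threshold, with r of 0.145 (permutation p = 0.532) for Rag1 and 0.106 (p = 0.648) for Rag2, and rho of 0.1 (p = 0.664) and 0.161 (p = 0.483).

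The changes of Rag1 and Rag2 were related over all lines (r = 0.742, permutation p = 0.00012, adjusted 0.00036; rho = 0.714, p = 0.00046, adjusted 0.00138; r = 0.76 without the 2 farthest lines). On deviations from genotype means r was 0.337 (permutation p = 0.136, adjusted 0.383), so this relation was not found within genotypes. Dntt changes were related to those of Rag1 (r = 0.493, p = 0.0236, adjusted 0.0355) and Rag2 (r = 0.562, p = 0.00707, adjusted 0.0141) over all lines, with -0.02 and 0.295 within genotypes. Changes of 2 genes in a line come from the same 2 arrays; the part of this in the relations was not tested.

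**Figure D4:**
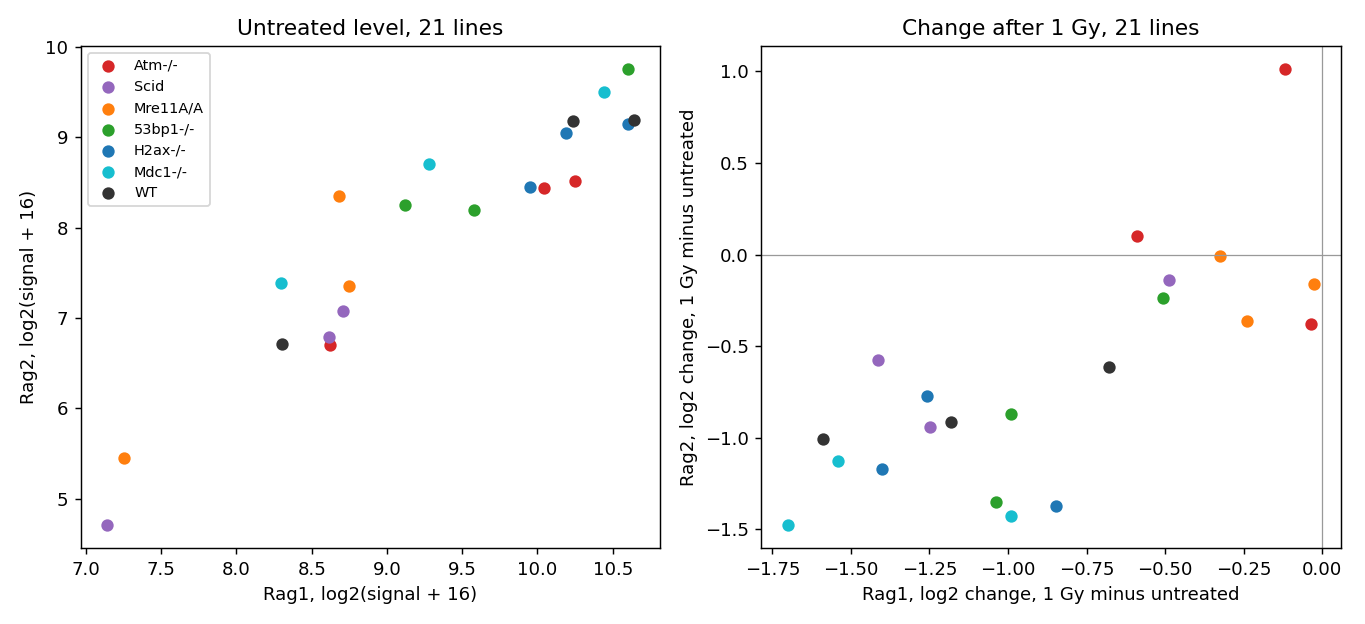
Rag1 against Rag2 over the 21 lines, as untreated log2(signal + 16) (left) and as log2 change, irradiated minus untreated (right); points are lines, marked by genotype. The untreated levels lie along 1 line (r = 0.938), and the changes of the Atm-/- and Mre11A/A lines run from -0.59 to -0.02 for Rag1 and from -0.38 to 1.01 for Rag2.

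Other genes whose untreated level was most like that of Rag1 over the 21 lines were Traf6 (r = 0.813), Hook1 (0.768), Ust (0.767) and Tcf7l1 (0.763). Those most like Rag2, after Rag1, were Tcf7l1 (0.838), Hook1 (0.832), Ust (0.818) and Id3 (0.808), so that Hook1, Ust and Tcf7l1 stood in both lists. Those most like Dntt were Irgm2 (0.765), Prkd3 (0.717), Mpp1 (0.695), Ldlrad4 (0.683) and Ssbp3 (0.677). Traf6, a ubiquitin ligase of NF-kB signalling, is a neighbour of the Rag locus on chromosome 2. By the change after radiation, the genes most like Rag1 were St8sia4 (0.937), Mtss1 (0.897), Elf1 (0.879), Cdkn2d (0.876) and Insm1 (0.872). Those most like Rag2 were Fut8 (0.832), Tspyl4 (0.83), St8sia4 (0.821), Fbxo22 (0.798) and Osbpl9 (0.79), and those most like Dntt were Rnase4 (0.785), Lhpp (0.73), Umod (0.711), Fut8 (0.7) and Ccng2 (0.696). Rag2 stood at rank 77 in likeness to the Rag1 change and Rag1 at rank 13 in likeness to the Rag2 change. These coefficients describe the 21 lines, share arrays and differences between genotypes, and carry no test.

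None of the 11 tested genes nearest to the Rag and Dntt loci was called after radiation. Of the 7 neighbours of the Rag locus, 6 were tested (Lrrc4c, Api5, Ttc17, Traf6, Commd9 and Iftap), and of 6 neighbours of Dntt, 5 (Blnk, Zfp518a, Ccnj, Opalin and Tm9sf3). Lrrc4c, Api5 and Ttc17 are the nearest listed genes on their side but lie megabases away. They end at chr2:97631672, chr2:94438186 and chr2:94406710, whereas Rag2 starts at chr2:101624712. limma called none of the 11 in the mean response or in any genotype's response, and none had an unadjusted p under 0.05 in the mean response. Of all 28217 probe sets, 10.8% were called in the mean response and 6417 had such an unadjusted p. In single genotypes 0.0461% to 3.58% were called, so no call among 11 genes lies near these shares. Lrrc4c and Opalin had mean untreated signals of 48.4 and 63.7, near or below the array medians, which limits what they can show. Traf6 had a mean change of -0.10 (adjusted p = 0.325), Iftap, which overlaps the locus, of -0.05 (adjusted p = 0.828), and Blnk of -0.03 (adjusted p = 0.587).

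A list of 12 partners of recombination held the end-joining factors and the HMG proteins that assist Rag cutting, and 10 could be tested. Of these, 1 was called in the mean response, Lig4, a share near the 10.8% of all probe sets called in either direction. Lig4, the ligase that seals broken ends, fell by 0.38 in the mean response (SE 0.06, adjusted p = 0.000179) and was lower in 18 of 21 lines, where 5.56% of probe sets were called lower. In WT lines 1, 3 and 4 it read 171, 157 and 213 after radiation, against 299, 313 and 268 untreated, a fall of 0.66 (adjusted p = 0.0355). Its changes were -0.05 in Atm-/- and 0.07 in Mre11A/A lines, and its Atm-/- change minus that of WT was 0.61 (SE 0.24, adjusted p = 0.224). With no replicate block, the mean Lig4 change had an adjusted p of 0.245. The next lowest adjusted p in the list were those of Xrcc6 (Ku70), with -0.08 (0.148), Hmgb2 with -0.05 (0.369) and Polm, a polymerase related to TdT, with -0.15 (0.381). The list's median was -0.04, against -0.00044 over all 28217 probe sets.

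Among 32 genes known to regulate Rag transcription or the pre-B stage at which Rag is expressed, 31 were tested and 15 changed in the mean response, 7 higher and 8 lower, where 10.8% of all probe sets changed, 5.21% higher and 5.56% lower. The 31 are leading probe sets, those of highest mean signal for each gene, whereas the shares are over all kept probe sets. The count and the shares are therefore not like for like, and the list was chosen with earlier results of these data known. The median of the list was -0.01. The genes with the lowest adjusted p were Spib, Irf4, Foxo3 and Myb. Spib, an Ets-family factor of B cells, rose by 0.94 (SE 0.07, adjusted p = 2.34e-09) and Irf4, which promotes light chain rearrangement in the mouse, by 0.50 (SE 0.04, adjusted p = 1.99e-08). Foxo3, a forkhead factor, rose by 0.70 (adjusted p = 2.15e-08), and Myb, a factor of proliferating progenitors, fell by 0.31 (adjusted p = 5.23e-08) and was lower in 21 of 21 lines. The second Irf4 probe set gave 0.20 (adjusted p = 0.0652). With no replicate block, 5 of the 31 were called, Irf4, Myb, Foxo3, Lef1 and Spib, where 2.41% of all probe sets were.

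Named after their values were seen, Foxo1 and Gadd45a, which activate Rag transcription in mouse B-lineage cells, had mean changes of -0.08 (adjusted p = 0.271) and -0.01 (adjusted p = 0.944). The other 2 Foxo1 probe sets gave -0.11 (adjusted p = 0.0344) and -0.07 (adjusted p = 0.33). Ikzf1, which encodes Ikaros, fell by 0.26 (adjusted p = 4.64e-06), Lef1 by 0.40 (adjusted p = 8.42e-06) and Ets1 by 0.33 (adjusted p = 0.000453). Pax5, the factor of B-cell identity, fell by 0.23 (adjusted p = 0.0225), with -0.05 (adjusted p = 0.859) on its other probe set. Ebf1 had -0.01 (adjusted p = 0.898) and Tcf3, the E2A gene, 0.09 (adjusted p = 0.261). Another Ebf1 probe set was called lower, with -0.10 (adjusted p = 0.0207), and the remaining Ebf1 probe sets were not called (adjusted p = 0.116 or more).

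By genotype, the regulators called were 3 higher and none lower in Scid, 2 and 1 in 53bp1-/-, 2 and none in H2ax-/-, 4 and 4 in Mdc1-/-, and 3 and 3 in WT lines. None of the 31 was called by limma in Atm-/- or in Mre11A/A lines, near the shares of 1.28% and 0.0461% of all probe sets called there. An unadjusted p under 0.05 was had by 7 and 4 of the 31, and by 4303 and 1322 of all 28217 probe sets. The shares of probe sets called in either direction were 1.28% in Atm-/-, 1.71% in Scid, 0.0461% in Mre11A/A, 1.17% in 53bp1-/-, 1.07% in H2ax-/-, 3.58% in Mdc1-/- and 2.25% in WT lines. Called higher alone were 0.5% in Atm-/-, 1.26% in Scid, 0.0461% in Mre11A/A, 0.978% in 53bp1-/-, 0.585% in H2ax-/-, 2.14% in Mdc1-/- and 1.28% in WT lines.

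Spib and Irf4 differed between Atm-/- and WT lines by the test of the difference itself. Spib read 1078, 776 and 1914 in Atm-/- lines after radiation, against 839, 827 and 2181 untreated, and in WT lines 3411, 1964 and 3692 after radiation, against 914, 428 and 2559 untreated. Its change was 0.03 in Atm-/- lines and 1.52 in WT lines, a difference of -1.50 (SE 0.27, adjusted p = 0.00911). Irf4 read 634, 1503 and 2055 in Atm-/- lines after radiation, against 590.0, 1806 and 2487 untreated, and in WT lines 4072, 4219.6 and 2631 after radiation, against 2520.2, 2668 and 1563 untreated. Its change was -0.14 in Atm-/- lines and 0.70 in WT lines, a difference of -0.84 (SE 0.17, adjusted p = 0.0163). Both genes were higher after radiation in 19 of the 21 lines, and the 2 lower lines were Atm-/- lines. Without WT line 1 or WT line 3 the Spib difference had adjusted p of 0.0626 and 0.0894, and the Irf4 difference 0.0607 and 0.0772. In Mre11A/A lines the changes of Spib and Irf4 were 0.44 and 0.23 (adjusted p = 1 each), and neither differed from WT beyond the threshold (adjusted p = 0.287 and 0.487).

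**Figure D5:**
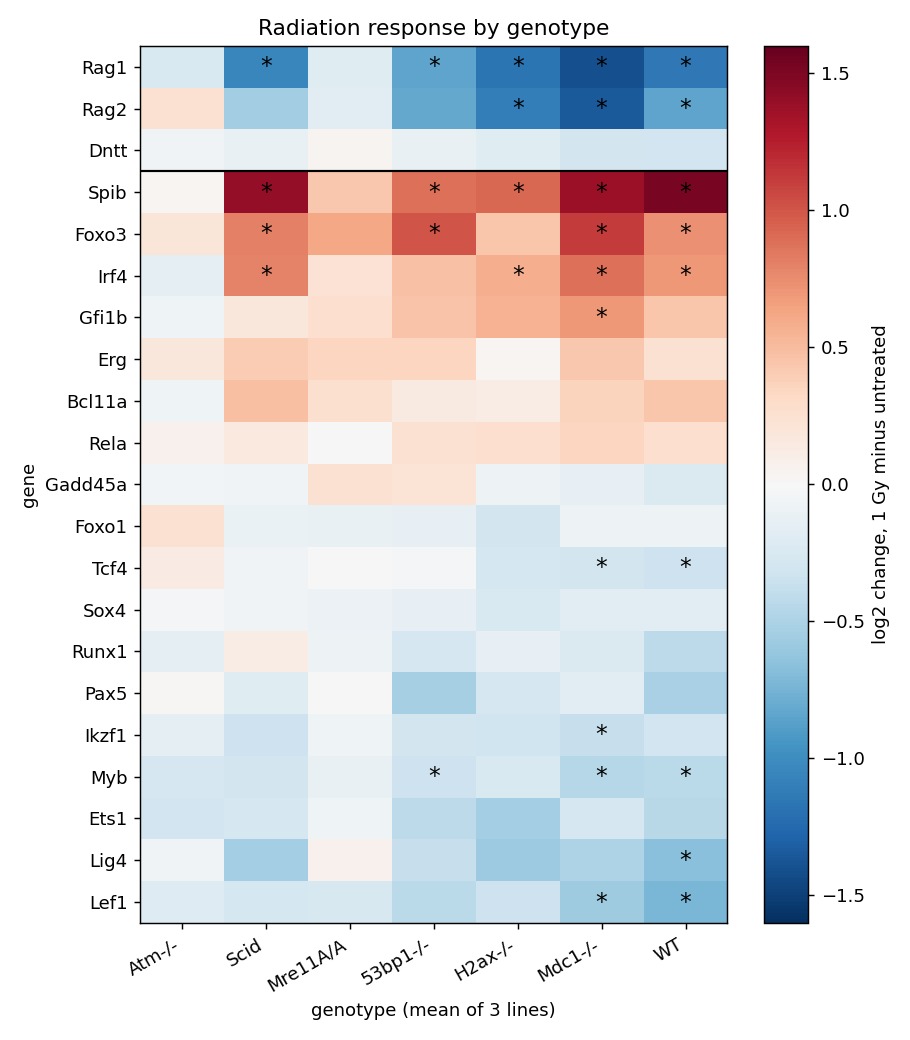
Heat map of the log2 change after radiation (irradiated minus untreated, colour) by genotype, with WT last, for Rag1, Rag2, Dntt and genes of the partner and regulator lists; an asterisk marks an adjusted p under 0.05 in limma. Rag1 and Rag2 are lowest in Mdc1-/-, H2ax-/- and WT columns, Spib and Irf4 highest in Scid, Mdc1-/- and WT columns, and the Atm-/- column is the palest for Spib and Irf4.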

How the data were processed

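RNA of 21 v-abl-transformed pre-B lines was hybridized to 42 Affymetrix arrays. The deposited values are intensities on a linear scale, made by the authors with MAS5, per the submitters' processing notes; the mean of each array after trimming 2% at both ends was 500.003. Labelling used the one-cycle protocol, per the labels' protocols. With 3 arrays in each group, their number limits the precision.

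Values were tested as log2(signal + 16), which understates changes of low signals. Of 45101 probe sets, 64 were controls, 34945 had 1 symbol in the platform annotation, 932 several and 9160 none here; 34741 matched RefSeq (GRCm38.p6) and 0 symbols changed. Probe sets above their array's median on at least 3 arrays were kept (28217, 23214 with 1 symbol). A gene is shown by its kept probe set with the highest mean, its leading probe set. limma 3.58.1 in R 4.3.3 (with the data.table package in version 1.17.8) was fitted over all kept probe sets, with Benjamini-Hochberg adjustment within a comparison and a threshold of 0.05; the 15 mutant pairs were adjusted jointly, and tests were two-sided. Responses used 42 arrays with the line as a block; untreated levels used the 21 untreated arrays. Deviations from group means of same-numbered arrays of a genotype correlated at 0.323 to 0.599 in all 21 pairs, so both arrays of a number were taken as 1 line. Between numbers (42 pairs) the correlation was at most -0.0404. Deviations within a group sum to 0, which pushes these values below 0 once same-numbered ones are positive, so they add no support. If lines of a genotype are not from separate animals, p-values measure only the spread between these samples. Correlations and plots used Python 3.11.15, numpy 2.4.6, pandas 2.3.3, scipy 1.17.1 and matplotlib 3.10.9.

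Named genes besides Rag1, Rag2 and Dntt were, for each list, up to 4 with the lowest adjusted p in the mean response, and for each member the 5 genes most alike in untreated level and in change; others are said to be named after their values were seen. The members and lists were chosen with earlier results of these data known. Alternatives were other pseudocounts (1 and 64), quantile normalization, centring on the 75th percentile, no filter, 1 probe set per gene, no variance trend, only the genotypes compared, no block, a random block, and leaving out lines. The limma steps were tested on simulated data.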

Additional observations from a re-analysis of the deposited data

Results flagged for a closer look

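Of the regulators of Rag transcription, 3 had a change after radiation in Atm-/- lines that differed from that in WT lines, by the test of the difference itself in limma with the line as a block. In log2 units, Spib differed by -1.50 (SE 0.27, adjusted p = 0.00911), from a change of 0.03 in Atm-/- lines and 1.52 in WT lines. Irf4 differed by -0.84 (SE 0.17, adjusted p = 0.0163), from a change of -0.14 in Atm-/- lines and 0.70 in WT lines. Its second probe set gave -0.32 (adjusted p = 0.64).

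Tcf4, the E2-2 gene, differed by 0.47 (SE 0.11, adjusted p = 0.0321), from a change of 0.14 in Atm-/- lines and -0.33 in WT lines. Its other probe sets gave 0.19 to 0.43 for the difference, with adjusted p of 0.0777 or more. limma called 1.01% of all probe sets in this comparison. All 3 calls were lost with no replicate block, without the variance trend (adjusted p = 0.079 for Spib, 0.0934 for Irf4 and 0.112 for Tcf4), with only the genotypes compared (0.153, 0.057 and 0.43), and without WT line 1 or WT line 3; the Tcf4 call was also lost without Atm-/- line 1 (adjusted p = 0.0576) or Atm-/- line 3 (adjusted p = 0.0739), and with centring on the 75th percentile (adjusted p = 0.0584), and the Irf4 call without Atm-/- line 2 and WT line 4 (adjusted p = 0.0552).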

How the results depend on the processing

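Of 549 recomputed main results, 514 were rated the same, and of 1083 other results, for single genes and for counts over the gene lists, 1021 were. A change or an F test was rated the same if it kept its side of the threshold. A change had to keep its direction too, except for listed genes not called in the main fit. A count was rated the same if it was equal or within 1.5-fold. A count could thus lose a call, as from 5 to 4 genotypes for Rag1, and still be rated the same. The choice that weighed most was the line as a block. With no replicate block, the number of genotypes called was 0 for Rag1 and 0 for Rag2, and the mean changes of -0.87 for Rag1, -0.66 for Rag2 and -0.15 for Dntt had adjusted p of 0.0609, 0.473 and 0.962. By construction this fit sets changes against differences in level between lines.

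With quantile normalization, 1 mutant differed from WT in its Rag2 response (Atm-/-, 1.19, adjusted p = 0.0413), and the F test of the response gave 0.0333 for Rag1 and 0.0492 for Rag2. The Rag1 F test gave 0.0481 with no filter and 0.0364 with 1 probe set per gene. With only the genotypes compared, Dntt was called in 1 genotype (Mdc1-/-, adjusted p = 0.0176). With the line as a random block (a replicate block over 42 arrays), the untreated Dntt level differed in 1 mutant (Mre11A/A, adjusted p = 0.0225), and the F test of untreated levels gave 0.0229 for Rag1, 0.0346 for Rag2 and 0.00555 for Dntt. Without Atm-/- line 2 and WT line 4, untreated Rag1 differed in 1 mutant (Mre11A/A, -2.21, adjusted p = 0.0473), the Rag1 response F test gave 0.0464, and those of untreated levels 0.0228 for Rag1 and 0.0452 for Rag2; Rag2 was then also called in 53bp1-/- (0.0314). The cause of these shifts was not tested.

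Leaving out single lines, Rag1 was called in 4 to 5 genotypes and Rag2 in 1 to 4. Rag1 differed from WT in 0 to 1 mutants (1 without WT line 4: Atm-/-, 1.14, adjusted p = 0.0237), Rag2 in 0 to 1 (1 without Atm-/- line 1: Atm-/-, 1.40, adjusted p = 0.0497), and untreated Dntt in 0 to 1 (1 without Mre11A/A line 3: -3.59, adjusted p = 0.0436). Mean changes ran from -0.91 to -0.84 for Rag1, -0.71 to -0.61 for Rag2 and -0.17 to -0.14 for Dntt. The F tests of the response gave 0.0161 to 0.132 for Rag1, 0.0595 to 0.19 for Rag2 and 0.489 to 0.79 for Dntt, and those of untreated levels 0.0421 to 0.213, 0.0599 to 0.304 and 0.0291 to 0.181 for the same genes. The direction reversed for the Rag2 change in Atm-/- lines (-0.14 without line 2, also with WT line 4 left out; range -0.14 to 0.56) and for untreated Dntt in Scid minus WT lines (-0.04 without WT line 3, -0.49 without Scid line 1; range -0.49 to 0.67), none of which was called. Among partners, 2 were called without Atm-/- line 1 or Scid line 2, and 0 with no block. Rag2 signals near the array median limit what can be seen in Scid lines.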

Other observations

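Some regulators differed between untreated mutant and WT lines where Rag1, Rag2 and Dntt were not called. Of the 31 tested, 0 were called higher and 1 lower in Scid, and 0 and 1 in Mre11A/A. The counts were 2 and 1 in 53bp1-/-, 1 and 2 in H2ax-/-, 3 and 2 in Mdc1-/-, and 0 and 0 in Atm-/- lines. Shares of all probe sets called were 0.248%, 4.42%, 4.37%, 4.95%, 6.63% and 0.0532% in the same order. Differences in H2ax-/- lines ran from -1.97 to 2.38. Runx1 and Bach2, both among the genes called lower, are named after their values were seen. Runx1, a factor of early lymphocytes, read 351, 427 and 213 in untreated Scid lines, against 1899, 1620.2 and 1463 in untreated WT lines, with no overlap. Its difference was -2.32 (limma, SE 0.24, adjusted p = 4.45e-05), where 0.248% of probe sets were called; no other mutant differed from WT beyond the threshold in Runx1 (adjusted p = 0.304 or more). The other 5 Runx1 probe sets gave -0.88 to 0.18 in the same comparison, with adjusted p of 0.0812 or more, so the size rests on 1 probe set. The Scid lines also had the lowest mean Rag1 and Rag2 levels, a relation that was not tested.

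Bach2, a transcriptional repressor that acts in B cells, read 1377, 1257 and 1015 in untreated H2ax-/- lines and 1165, 1556 and 1359.6 in untreated Mdc1-/- lines, against 3924, 4437 and 6275 in untreated WT lines. The differences were -1.97 in H2ax-/- (adjusted p = 0.00836, 4.95% of probe sets called) and -1.81 in Mdc1-/- lines (adjusted p = 0.0116, 6.63% called). The other 2 Bach2 probe sets gave -0.99 and -0.19 in H2ax-/- and -0.79 and 0.19 in Mdc1-/- lines, none called. Of the 7 genotypes, H2ax-/- had the highest mean untreated Rag1 and Rag2 and Mdc1-/- the highest mean untreated Dntt, none called against WT. Mean untreated Dntt was lower in H2ax-/- (10.14) than in WT lines (11.12). Mean untreated Rag1 was lower in Mdc1-/- (9.34) than in WT lines (9.73), and Rag2 was 8.53 in Mdc1-/- and 8.36 in WT lines. A relation of these levels to Bach2 was not tested.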
